A study of Homo sapiens with 6 samples.

Results

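The ErbB receptors, 5 of the ligands that bind them and the receptor inhibitor ERRFI1 were followed in the human prostate cancer line VCaP. The set was chosen by gene symbol and holds 10 of the 58735 genes in the count table: the receptor genes EGFR, ERBB2, ERBB3 and ERBB4, the ligand genes AREG, EREG, TGFA, HBEGF and NRG4, and ERRFI1. VCaP cells had been stably infected with an shRNA, which lowers its target mRNA. It was directed either at NEDD9 (shNEDD9, 3 libraries) or at no human target (shNTC, 3 libraries), and both lines were grown in DMEM with 10% FBS. The design text speaks of biological triplicates. Whether the libraries of a group came from separately infected cultures, how many hairpin sequences were used and whether the lines were clonal are not given in the sources used here, so the p-values below reflect only how far these libraries scatter, and that scatter may be technical.

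ErbB receptors are membrane tyrosine kinases that signal as pairs. Ligands are made as membrane-anchored precursors and are cut free by proteases of the ADAM family; binding lets receptors pair and phosphorylate each other, which feeds the RAS-MAPK and PI3K-AKT pathways. ERBB2 has no known ligand of its own and ERBB3 has little kinase activity, so the ERBB2-ERBB3 pair combines what each lacks. In epithelia, prostate included, this system drives growth and survival, and ERRFI1 (also called MIG6) is induced by receptor signalling and blocks the receptor kinase domain in return.

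The libraries held 3217276 to 9902002 counts. CPM values are counts per 1000000 of the library total, scaled with TMM factors of 0.992 to 1.01 unless stated. Detection was limited to 3 counts per library, or 0.303 to 0.932 CPM, and such floors and counting intervals cover counting error only. NEDD9, the targeted gene, stood at 354.6 ± 14.2 CPM in shNTC and 136.6 ± 1.03 CPM in shNEDD9 (SD, n = 3 each), and thus fell by 61.8%. All 9 prostate luminal markers examined, among them KLK3 and KRT8, were detected, with a summed level of 14500 to 14800 CPM in shNTC and 17100 to 17600 CPM in shNEDD9. Most of that sum was KLK2 (means of 9373 CPM in shNTC and 11206 CPM in shNEDD9), and the markers did not move together: KLK3 rose by 1.75 on the log2 scale, while KRT8 fell by 1.43, TMPRSS2 fell by 0.63, HOXB13 fell by 0.61 and KRT18 fell by 0.42. The immune genes CD3E and CD68 and the endothelial gene CDH5 had 0 counts in every library. The summed level of the 7 fibroblast markers was 26.7 to 34.5 CPM in shNTC and 47.3 to 54.4 CPM in shNEDD9. Most of it was LUM, which rose from a mean of 19.1 to 45.1 CPM. COL1A1, the only other fibroblast marker tested, fell from 7.21 to 4.62 CPM, and the rest had too few counts. The sum of the 5 immune markers was 15.1 to 20.4 against 1.34 to 1.65 CPM, nearly all of it LYZ. That of the 4 endothelial markers was 1.34 to 2.82 against 1.61 to 2.34 CPM. The part of these genes in the results below was not tested. In RNA from whole cultures, fewer cells that make a transcript and less transcript per cell cannot be told apart.

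The start regions of 4 members are shown because their transcripts behaved differently: TGFA fell most of the tested members, HBEGF fell less, AREG was at the edge of detection and ERRFI1 rose. The sequences are RefSeq's (GRCh38.p14), where 9 of the 10 members have an entry. Each reads 5′ to 3′ along the gene's strand and covers the bases among the 250 before the RefSeq start that lie in no GENCODE 29 exon. Capitals mark matches, on either strand, to the GC box GGGCGG, the TATA box TATAAA and the CRE core TGACGT. The AP-1 element TGANTCA, the E-box CACGTG and the ETS core CCGGAAG were also searched and had 0 matches in these 4 stretches.
TGFA (chr2:70554016-70554076, minus strand): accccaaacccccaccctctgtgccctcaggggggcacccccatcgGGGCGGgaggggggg
HBEGF (chr5:140346632-140346853, minus strand): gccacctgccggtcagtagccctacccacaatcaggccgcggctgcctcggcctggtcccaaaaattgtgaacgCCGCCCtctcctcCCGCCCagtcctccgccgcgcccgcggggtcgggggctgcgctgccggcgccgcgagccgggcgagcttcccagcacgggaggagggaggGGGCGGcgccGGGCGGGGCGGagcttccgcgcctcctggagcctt
AREG (chr4:74444886-74445133, plus strand): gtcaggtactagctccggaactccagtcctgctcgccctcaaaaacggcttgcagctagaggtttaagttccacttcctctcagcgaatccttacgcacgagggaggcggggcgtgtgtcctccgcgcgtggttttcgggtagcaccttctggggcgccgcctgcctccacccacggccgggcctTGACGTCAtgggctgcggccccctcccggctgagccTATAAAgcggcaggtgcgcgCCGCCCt
ERRFI1 (chr1:8026310-8026559, minus strand): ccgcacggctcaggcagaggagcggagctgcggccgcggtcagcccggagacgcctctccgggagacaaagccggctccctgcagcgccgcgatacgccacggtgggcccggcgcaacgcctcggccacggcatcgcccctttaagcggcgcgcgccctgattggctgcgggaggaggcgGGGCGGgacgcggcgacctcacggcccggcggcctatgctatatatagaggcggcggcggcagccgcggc

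The TGFA stretch is short, at 61 bases, because the 189 bases next to the RefSeq start used are exon of a longer annotated transcript. The stretch itself lies in an intron of a further TGFA transcript, whose start is farther upstream. It holds 1 GC box, as does that of ERRFI1, while the HBEGF stretch of 222 bases holds 5, 2 of which overlap. A GC box occurs in 10.9%, 42.6% and 39.2%, in that order, of all 35116 RefSeq windows trimmed to the same bases. The AREG stretch holds 1 GC box (in 42.4% of windows trimmed likewise). Alone among the 4 it holds the exact letters TATAAA and TGACGT, the latter as a palindrome that matches on both strands. TATAAA and TGACGT occur in 10.7% and 7.0% of such windows. The EREG stretch, which is not shown, also holds 1 TATAAA but no TGACGT. The ERRFI1 stretch holds tatatata near its end, which the letters TATAAA do not match, and looser forms of the TATA box were not searched. These matches are letters in a window, not shown binding sites.

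Of the 10 members, 7 passed the count filter and were tested, and 3 (ERBB4, AREG and EREG) had too few counts. In shNEDD9, 6 were lower and 1 was higher at an adjusted p under 0.05, against a background of 71.4% of all 13958 tested genes called in either direction, 35.9% lower and 35.5% higher. NRG4 passed the filter through its shNTC libraries only, so its difference was favoured by the filter. The members were chosen with earlier results of these data known, so the numbers lower and higher may not be independent of that choice. In all 7 the CPM of the groups did not overlap, as in 71.8% of all tested genes. ERBB3, TGFA and NRG4 fell at least 2-fold, as did 9.22% of tested genes, and no member rose 2-fold, where 7.67% of tested genes did. Over all tested genes the median log2 fold change was 0.00.

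**Figure D1:**
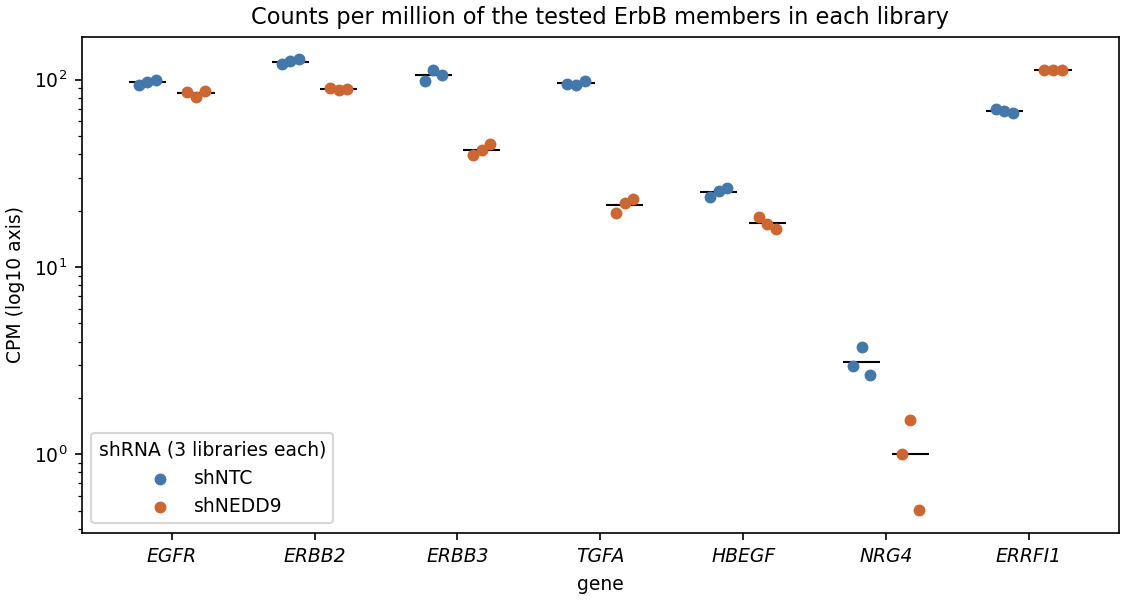
CPM on a log10 axis for the 7 tested members in each library (points; 3 shNTC in blue, 3 shNEDD9 in orange; black lines are group means). TGFA falls from 95.9 to 21.5 CPM and ERRFI1 rises from 68.0 to 112.6 CPM; ERBB4, AREG and EREG are not drawn because their counts were too few.

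Among the receptors, ERBB3 fell most, ERBB2 less and EGFR least. ERBB3 (ENSG00000065361, GRCh38 chromosome 12, 56076799 to 56103505, plus strand), the receptor that binds neuregulins and docks PI3K, read 98.7, 113.1 and 105.6 CPM in the shNTC libraries and 39.8, 42.1 and 45.1 CPM in the shNEDD9 libraries. The highest shNEDD9 library lay 53.5 CPM below the lowest shNTC library. The decrease was 2.44-fold (log2 fold change -1.28, SE 0.06, edgeR adjusted p = 1.18e-100), and 6.00% of tested genes fell further.

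ERBB2 (ENSG00000141736, chromosome 17, 39687914 to 39730426, plus strand), the preferred pairing partner of the other receptors, read 121.0, 125 and 128.4 CPM in shNTC and 89.8, 88.2 and 89.4 CPM in shNEDD9. The shNEDD9 libraries lay within 1.61 CPM of each other and below all shNTC libraries. ERBB2 fell by 28.5% (log2 fold change -0.48, SE 0.05, edgeR adjusted p = 2.12e-22). EGFR (ENSG00000146648, chromosome 7, 55019021 to 55211628, plus strand), the receptor of TGFA, AREG and EGF, read 94.1, 97.1 and 99.997 CPM in shNTC and 86.2, 80.4 and 86.8 CPM in shNEDD9. The groups did not overlap, but their nearest libraries were 7.26 CPM apart. EGFR fell by 12.8% (log2 fold change -0.20, SE 0.05, edgeR adjusted p = 0.000306).

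ERBB4 (ENSG00000178568, chromosome 2, 211375717 to 212538841, minus strand), the receptor of NRG4, had 0, 0 and 2 counts in shNTC and 0 in each shNEDD9 library. Over a group this is 0.117 CPM of unscaled counts (95% exact Poisson interval 0.0141 to 0.421) against 0 (interval up to 0.156). The floor of 3 counts over a group is 0.175 CPM in shNTC and 0.127 CPM in shNEDD9. ERBB4 mRNA was thus not detectable above the floor in either line, and no fold is given.

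Because the receptors fell unequally, their proportions shifted. Levels of different genes are compared as CPM per kilobase of merged exons. On that scale the receptors summed to 31.6 ± 1.22 in shNTC and 20.1 ± 0.49 in shNEDD9 (SD, n = 3 each), a drop of 36.4% (two-sided exact permutation p = 0.1, the smallest that 3 against 3 libraries allow). The share of ERBB3 in this sum was 36.2, 38.6 and 36.4% in shNTC and 22.04, 23.7 and 24.3% in shNEDD9. The difference was -13.7 percentage points. EGFR took 24.6 ± 0.54% in shNTC and 33.6 ± 0.86% in shNEDD9, and ERBB2 38.3 ± 0.81% and 43.1 ± 0.86% (SD, n = 3 each). For each of these 3 shares the groups did not overlap (exact permutation p = 0.1, adjusted over the 4 receptors 0.133), so none could pass 0.05 in this design. The per-length ratio of ERBB2 to ERBB3 was 1.04 ± 0.06 in shNTC and 1.85 ± 0.12 in shNEDD9, and that of EGFR to ERBB3 was 0.664 ± 0.038 and 1.44 ± 0.10 (n = 3 each, exact permutation p = 0.1 for both).

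**Figure D2:**
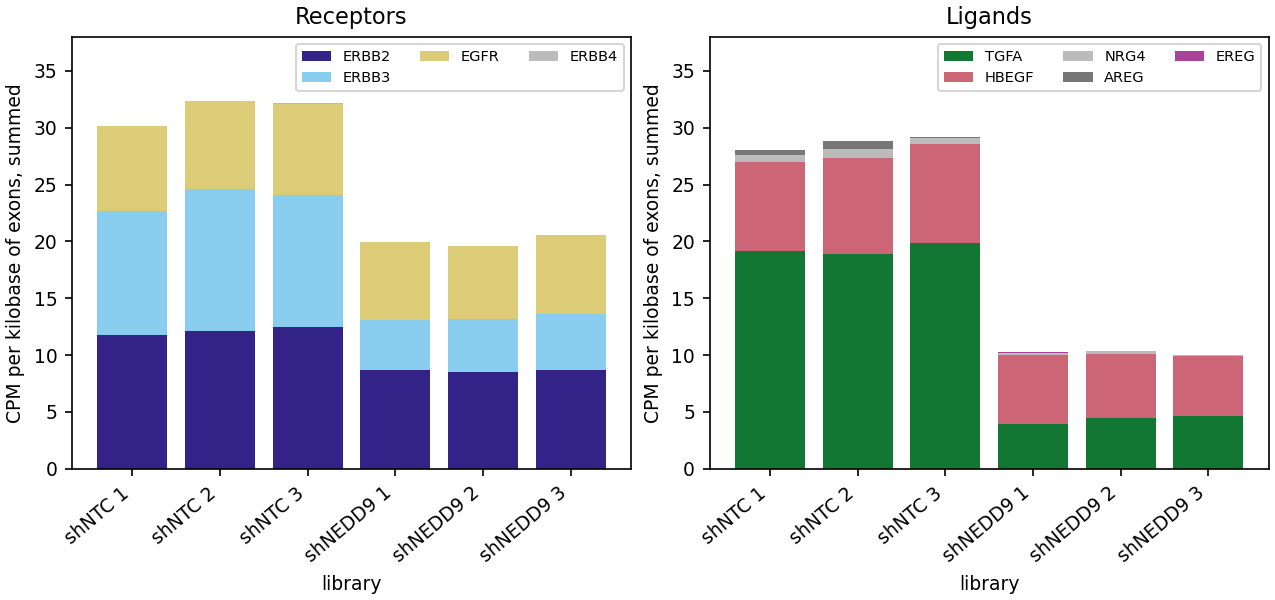
Stacked CPM per kilobase of merged exons for the receptors (left) and member ligands (right) in each of the 6 libraries. The receptor sum drops from a mean of 31.6 to 20.1 with ERBB3 losing most, and the ligand sum from 28.7 to 10.2 with TGFA losing most; ERBB4 and EREG are too low to see.

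The ligand TGFA showed the largest change of any tested member. TGFA (ENSG00000163235, chromosome 2, 70447280 to 70554193, minus strand) encodes transforming growth factor alpha, an EGFR ligand that many carcinoma cells make for themselves. It read 95.04, 93.97 and 98.6 CPM in shNTC and 19.4, 22.1 and 22.9 CPM in shNEDD9. The highest shNEDD9 library held 24.4% of the level of the lowest shNTC library. The decrease was 4.42-fold (log2 fold change -2.14, SE 0.07, edgeR adjusted p = 2.01e-197), and 2.13% of tested genes fell further.

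HBEGF (ENSG00000113070, chromosome 5, 140332843 to 140346631, minus strand), a heparin-binding ligand of EGFR and ERBB4, fell less. It read 23.7, 25.4 and 26.4 CPM in shNTC and 18.4, 16.99 and 15.98 CPM in shNEDD9. The groups were separate, and HBEGF fell by 32.3% (log2 fold change -0.56, SE 0.11, edgeR adjusted p = 2.02e-07). NRG4 (ENSG00000169752, chromosome 15, 75935969 to 76059795, minus strand), a neuregulin that binds ERBB4, rested on 51 counts in shNTC and 23 in shNEDD9. It read 2.95, 3.76 and 2.65 CPM in shNTC and 1.004, 1.52 and 0.503 CPM in shNEDD9, all near the floor in shNEDD9. Its fitted decrease was 3.06-fold (log2 fold change -1.61, SE 0.36, edgeR adjusted p = 9.85e-06), with a 95% interval of the log2 fold change from -2.31 to -0.91.

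AREG (ENSG00000109321, chromosome 4, 74445134 to 74455009, plus strand), which encodes amphiregulin, an EGFR ligand, had 5, 4 and 1 counts in shNTC and 0 in each shNEDD9 library. Over a group this is 0.583 CPM of unscaled counts in shNTC, with an exact Poisson interval, taken as for ERBB4, of 0.279 to 1.07. In shNEDD9 it is 0, with an interval up to 0.156 CPM, so the intervals did not overlap. The shNTC estimate was 4.60-fold the floor of 3 counts over the shNEDD9 group. This ratio leaves out the counting error of shNTC and is not a lower bound on the decrease. AREG failed the count filter. Without a filter its adjusted p was 0.00112 by edgeR, and it was 0.00562 by DESeq2. EREG (ENSG00000124882, chromosome 4, 74365143 to 74388751, plus strand), which encodes epiregulin, had 0 counts in shNTC and 1 in shNEDD9, and no fold is given.

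Per kilobase of merged exons the 5 ligands summed to 28.7 ± 0.62 in shNTC and 10.2 ± 0.18 in shNEDD9 (SD, n = 3 each), 64.4% lower (exact permutation p = 0.1). TGFA made up 68.4, 65.6 and 68.0% of this sum in shNTC and 38.2, 42.8 and 46.1% in shNEDD9. HBEGF made up 29.04 ± 0.91% in shNTC and 55.6 ± 3.53% in shNEDD9 (n = 3 each). Thus, per length, TGFA was the most abundant member ligand in every shNTC library and HBEGF in every shNEDD9 library. For the shares of TGFA and HBEGF the exact permutation p was 0.1, adjusted over the 5 ligands 0.167. Without division by length TGFA stayed above HBEGF in every shNEDD9 library (19.4, 22.1 and 22.9 against 18.4, 16.99 and 15.98 CPM). The share of HBEGF was higher although its own level was lower.

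ERRFI1 (ENSG00000116285, chromosome 1, 8004404 to 8026308, minus strand) was the one tested member that rose. This inhibitor gene read 69.7, 68.0 and 66.5 CPM in shNTC and 112.9, 112.1 and 112.9 CPM in shNEDD9. The shNEDD9 libraries were nearly equal and all lay above shNTC. The increase was 1.65-fold (log2 fold change 0.72, SE 0.05, edgeR adjusted p = 1.32e-40). Per length, the ratio of ERRFI1 to EGFR was 2.10 ± 0.11 in shNTC and 3.99 ± 0.15 in shNEDD9, while that of TGFA to EGFR was 2.49 ± 0.05 and 0.642 ± 0.065 (SD, n = 3 each, exact permutation p = 0.1 for both).

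The order of per-length levels in shNTC was TGFA (19.3 ± 0.49), ERRFI1 (16.3 ± 0.39), ERBB2 (12.1 ± 0.36), ERBB3 (11.7 ± 0.80), HBEGF (8.33 ± 0.44) and EGFR (7.75 ± 0.24), in CPM per kilobase (SD, n = 3). The ranges of ERBB2 and ERBB3 overlapped there, and ERBB2 was the higher in 2 of 3 libraries, so this pair cannot be ordered on this scale. The ranges of HBEGF and EGFR overlapped too, although HBEGF was the higher within each of the 3 libraries. NRG4 (0.620 ± 0.114) and AREG (0.421 ± 0.333) were far below, and NRG4 was the higher in 2 of 3 libraries. In shNEDD9 the order was ERRFI1 (26.9 ± 0.12), ERBB2 (8.64 ± 0.08), EGFR (6.75 ± 0.28), HBEGF (5.67 ± 0.40), ERBB3 (4.68 ± 0.29) and TGFA (4.32 ± 0.37), where the ranges of ERBB3 and TGFA overlapped while ERBB3 was the higher within each of the 3 libraries. The order depends on the length used. Per kilobase of the longest coding transcript ERBB2 was first in shNTC, at a mean of 26.0. It was ahead of TGFA at 22.2, ERRFI1 at 21.9 and ERBB3 at 17.9.

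**Figure D3:**
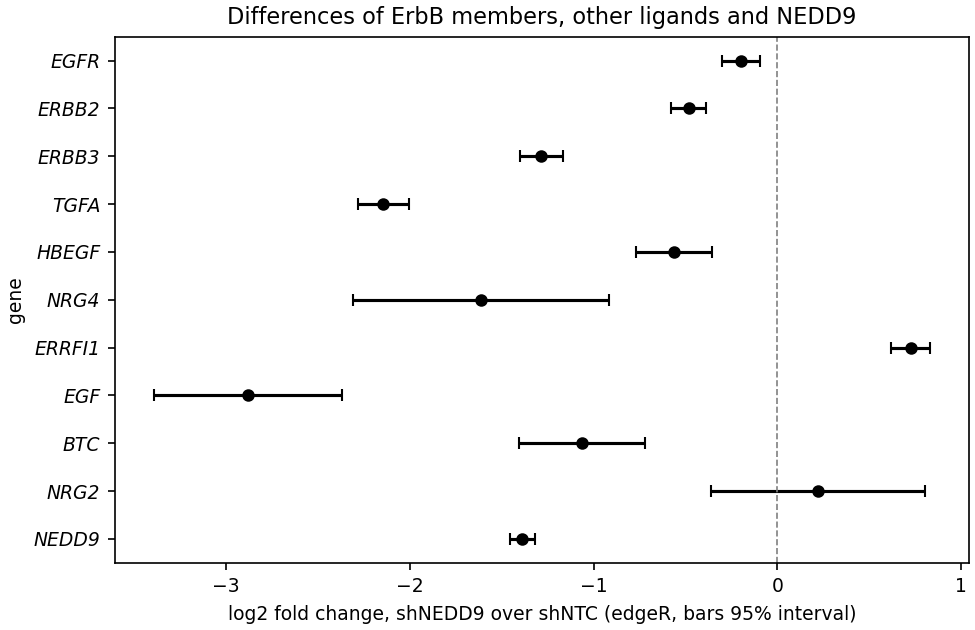
Log2 fold changes of shNEDD9 over shNTC from edgeR (points) with 95% intervals (bars) for the tested members, the tested ligands outside the set and NEDD9. All but ERRFI1 and NRG2 lie below 0, from -0.20 for EGFR to -2.88 for EGF.

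The ligand genes outside the set were mostly low or fell. EGF, the founding ligand of EGFR, read 8.71, 5.95 and 9.52 CPM in shNTC and 1.17, 1.39 and 0.905 CPM in shNEDD9, a fitted decrease of 7.37-fold (log2 fold change -2.88, SE 0.26, edgeR adjusted p = 1.05e-27); like NRG4 it passed the filter through shNTC only. BTC, which encodes betacellulin, a ligand of EGFR and ERBB4, fell by 1.06 on the log2 scale (10.4 ± 0.90 to 5.11 ± 0.26 CPM, n = 3 each, edgeR adjusted p = 2.55e-09). NRG2, a neuregulin gene, read 2.34 ± 0.42 and 2.83 ± 0.62 CPM with overlapping libraries and was not called (95% interval of the log2 fold change -0.36 to 0.80, edgeR adjusted p = 0.514). NRG1 and NRG3 had 0 counts in every library (95% exact Poisson interval up to 0.215 CPM in shNTC and 0.156 CPM in shNEDD9). EPGN had 2 counts in shNTC and 0 in shNEDD9. Of the neuregulin genes, NRG2 and NRG4 were thus above the floor and NRG1 and NRG3 were not.

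AREG, EREG, EPGN and BTC lie close together on chromosome 4, next to a cluster of chemokine genes. Within 1 Mb of the span of EREG and AREG the annotation has 43 genes, of which 10 were tested: 8 were lower, 1 was higher and 1 was not called, against 35.9% of all tested genes lower. CXCL1, CXCL5, CXCL3 and MTHFD2L, 4 of the 8, passed the count filter through shNTC only, so their differences were favoured by the filter. Of the 6 that passed in both groups, 4 were lower and 1 was higher. On the chemokine side CXCL8, CXCL1, CXCL5 and CXCL3 fell, with log2 fold changes of -2.93, -3.56, -2.79 and -3.30, and MTHFD2L, a mitochondrial folate enzyme gene 62 kb from EREG, fell by 4.38 (4.56 ± 0.74 to 0.185 ± 0.162 CPM, n = 3 each). No shNEDD9 library exceeded the floor of 3 counts for MTHFD2L (5 counts over the group) or CXCL3 (6 counts), so the sizes of these 2 decreases are imprecise. Without shNEDD9 replicate 2 the log2 fold change of CXCL1 was -4.27. RASSF6, a gene of the RAS association domain family, fell by 1.99. On the other side of the pair BTC fell by 1.06 and PARM1, an androgen-regulated mucin-like gene, fell by 2.33. ALB, the albumin gene, rose by 0.37 and AFP, the fetal counterpart of ALB, had a log2 fold change of -0.27 (edgeR adjusted p = 0.0843); these are the 2 tested genes farthest from the pair. Whether the position of these genes had a part in their change was not tested.

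**Figure D4:**
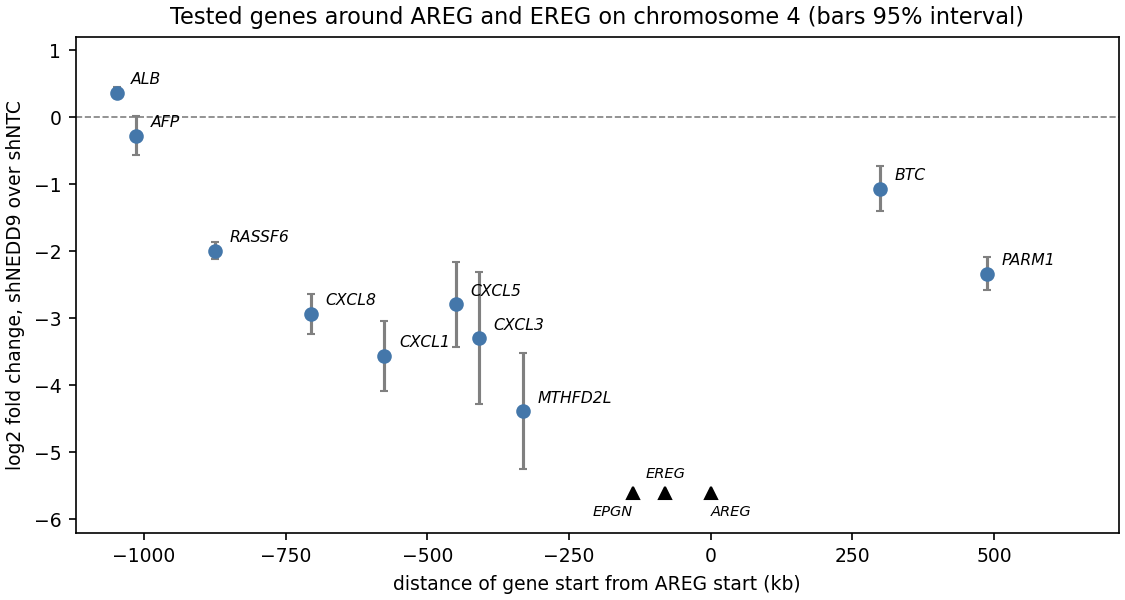
Log2 fold change (edgeR, bars are 95% intervals) of the 10 tested genes within 1 Mb of the span of EREG and AREG against the distance of their start from that of AREG in kb. Triangles mark EPGN, EREG and AREG, which had too few counts to be tested; from RASSF6 to PARM1 every tested gene lies below 0.

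Among genes that release ErbB ligands, 5 of the 8 tested fell and 1 rose, with a median log2 fold change of -0.64. The share called was 75% against 71.4% of all tested genes. The number that rose was 1 without shNEDD9 replicate 2, 3 without shNEDD9 replicate 1 and 2 without any other single library. RHBDL2, 1 of the 5 that fell, passed the filter through shNTC only. ADAM10, the protease that frees EGF and BTC, read 199.9 ± 15.7 CPM in shNTC and 98.7 ± 3.13 CPM in shNEDD9 (n = 3 each) and fell by 1.04 on the log2 scale (edgeR adjusted p = 2.82e-129). FRMD8, a partner of the iRhom proteins, fell by 1.03, and the iRhom gene RHBDF1, whose product carries ADAM17 to the cell surface, fell by 0.90. The other iRhom gene, RHBDF2, was not called, at 14.5 ± 0.98 against 16.4 ± 1.65 CPM (n = 3 each, edgeR adjusted p = 0.108). The gene that rose was ADAM15, by 0.38. ADAM17, the main protease for TGFA, HBEGF and AREG, was not called, at 27.5 ± 3.21 against 29.2 ± 3.33 CPM (n = 3 each, edgeR adjusted p = 0.337).

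Genes of receptor turnover went both ways, with 8 higher and 6 lower of 17 tested (median -0.07), against 35.5% higher and 35.9% lower of all tested genes; without shNTC replicate 3 the number higher was 5. RNF41, a ubiquitin ligase gene whose product targets ERBB3, rose 2.08-fold, from 140 ± 3.30 to 292.3 ± 1.45 CPM (n = 3 each, edgeR adjusted p = 1.09e-171). LRIG3 rose 2.84-fold and LRIG1, which encodes a membrane protein that promotes ErbB receptor degradation, 1.63-fold. CBL, the ubiquitin ligase gene for activated EGFR, fell by 0.45.

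Of 15 tested adaptor genes 9 fell and 2 rose (median -0.23), a share called of 73.3%, near the 71.4% of all tested genes. SHC4, 1 of the 9, passed the filter through shNTC only. SHC2 fell by 1.63 on the log2 scale, GAB2 fell by 0.91 and GAB1, the docking protein gene of EGFR signalling, fell by 0.83, while GRB2, the adaptor that links the receptors to RAS, fell by 0.13. In the RAS-MAPK cascade 5 of 13 tested genes fell and 4 rose (median -0.08), and the share called, 69.2%, was near that background too. RASA1, which encodes a GTPase-activating protein that switches RAS off, fell by 0.52 (34.5 ± 1.46 to 24.1 ± 1.29 CPM, n = 3 each, edgeR adjusted p = 2.11e-08). All 10 tested PI3K-AKT genes were called, 7 lower and 3 higher (median -0.25), where 35.9% of all tested genes were lower and 35.5% higher. PIK3R1, the regulatory subunit that docks on ERBB3, rose by 0.88 (91.5 ± 9.55 to 173.7 ± 7.63 CPM, n = 3 each), PIK3R3 fell by 0.48 and INPP4B, a lipid phosphatase gene, fell by 0.41. The INPP4B call was lost when every library was thinned to the depth of the smallest (log2 fold change -0.30, edgeR adjusted p = 0.126, range over 15 alternatives 0.00212 to 0.126).

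**Figure D5:**
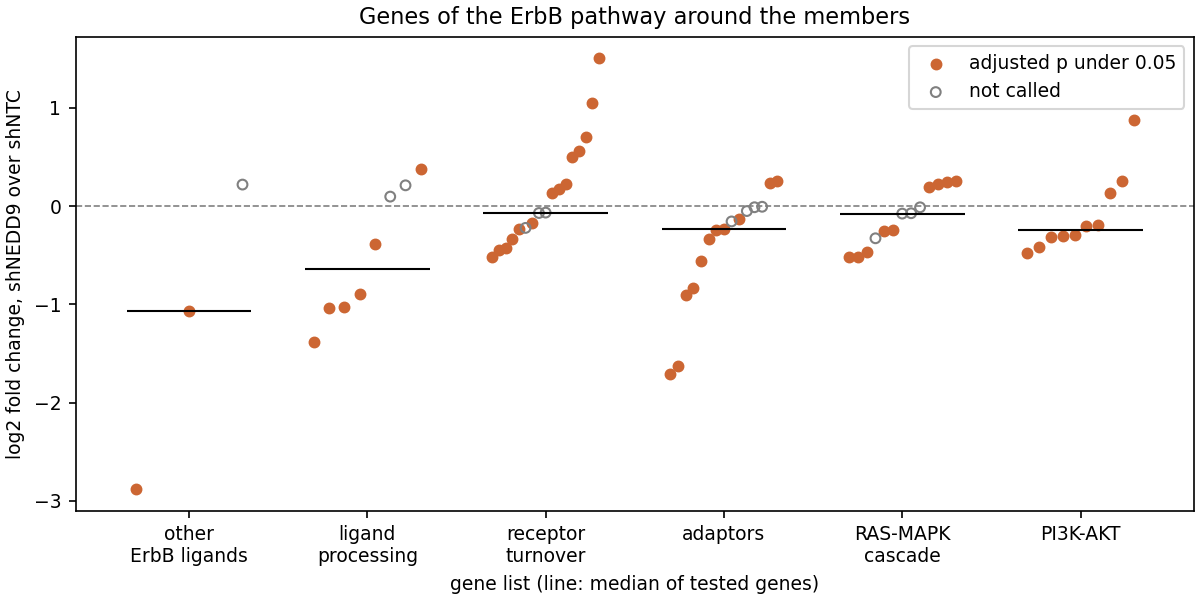
Log2 fold change of shNEDD9 over shNTC for each tested gene of 6 lists around the members (filled points passed an adjusted p of 0.05, open points did not; black lines are list medians). The ligand processing genes have a median of -0.64, while the RAS-MAPK genes lie within -0.52 and 0.25.

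The profiles nearest to ERBB2 and TGFA, the receptor and the member ligand with the highest mean per-length level over the 6 libraries, were sought among 9963 other genes averaging 10 CPM or more, by the root mean square difference of centred log2 CPM over the 6 libraries. For ERBB2 these were CLIC1 (0.0168), ADGRG6 (0.0189) and RAB5B (0.0201), whose log2 fold changes were -0.50, -0.49 and -0.51. For TGFA they were EGLN3 (0.0521), FAM135A (0.0591) and SPINK5 (0.0749), with -2.07, -2.18 and -2.28. With 2 groups of 3 libraries this likeness reflects little beyond the size of the group difference.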

How the data were processed

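Whole-number counts of reads per gene, not normalised, were deposited by the authors as 1 table with a column per library. Per the labels' protocols, RNA was column-purified and made into stranded total RNA libraries. STAR 2.5.3a, Subread 1.6.2 with featureCounts, cutadapt 1.9 and FastQC 0.11.5 are named, with the builds hg19 and GRCh38, per the submitters' processing notes; the annotation release and strand setting of the counting are not given in the sources used here, so reads of overlapping or antisense genes may be mixed. 1 row without an identifier was left out. Coordinates, names and exon lengths come from GENCODE 29 (GRCh38), matched by Ensembl identifier.

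Groups were taken from the sample titles. shNEDD9 was compared with shNTC over the whole table with edgeR 4.0.16 in R 4.3.3 (TMM factors, filterByExpr with a minimum count of 10, robust glmQLFit, glmQLFTest) and Benjamini-Hochberg adjustment over 13958 genes, called at 0.05. SEs are the unmoderated log2 fold change over the square root of F, and 95% intervals use the normal quantile. Single values were compared by two-sided exact permutation over libraries. In data simulated for 12417 genes of this comparison, the test recovered 56% of genes given a 1.25-fold change and 82% at 1.5-fold. It recovered 98% at both 2-fold and 4-fold, and 6 of 173 calls were false. The simulation left out low-count genes, changed only a small part of the rest and used a fixed scatter above that fitted to the real data. In the real data 71.4% of tested genes were called, so the simulated rates need not hold there. Counts of replicate pairs scattered beyond Poisson noise (chi-square per degree of freedom 1.14 to 1.20), and each library was counted once. This extra scatter was small, at a common coefficient of variation of 1.65% as fitted by edgeR. Whether it is technical was not tested.

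The members and lists were chosen with earlier results of these data known. Named genes were all members, NEDD9, the other ErbB ligands and up to 3 called genes of largest change per list at a mean of at least 5 CPM. The tested genes within 1 Mb of EREG and AREG and the 3 nearest profiles of the top receptor and ligand were named too. GRB2, CBL, ADAM15, ADAM17, RHBDF2 and the marker genes were added for their role after their values were seen. Some genes that this rule takes are not reported here. Alternatives tried were upper-quartile or RLE scaling, no scaling beyond totals, other filters, DESeq2 1.42.0, limma-voom (limma 3.58.1), a replicate block, thinning, and leaving out each library.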

Additional observations from a re-analysis of the deposited data

How the results depend on the processing

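The count of called genes, the 6 lower and 1 higher members, and the 8 lower and 1 higher neighbours of AREG and EREG stayed within 1.5 times their reported counts under every alternative run. Each tested member kept its direction and its call in every alternative that tested it: 15 for EGFR, ERBB2, ERBB3, TGFA, HBEGF and ERRFI1, and 14 for NRG4. The log2 fold change ranged from -0.25 to -0.16 for EGFR, -2.20 to -2.09 for TGFA, -2.08 to -1.19 for NRG4 and 0.70 to 0.77 for ERRFI1. Of the ligand processing genes, 2 rather than 1 were higher without a count filter, at a mean of at least 1 CPM and with DESeq2. ADAM12 was among them without a filter (log2 fold change 2.26). The number ranged from 1 to 3 with each library left out in turn; RHBDF2 was called without shNEDD9 replicate 1 (edgeR adjusted p = 0.0458). The number of higher receptor turnover genes ranged from 5 to 8, with 5 without shNTC replicate 3. The log2 fold change of ADAM17, 0.10 and not called, ranged from -0.0131 (without that library) to 0.200 with each library left out; the cause was not tested. The difference in the NRG4 share of the ligands, -0.21 percentage points, was 0.0309 points without division by length and -0.69 to 0.27 points with each library left out; the cause was not tested, and ERBB4 and EREG shares were not followed at so few counts.

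With the replicate number as a block, 9827 genes were called in place of 9963, and the members were again 6 lower and 1 higher. Same-numbered libraries did not deviate together (correlations across 9964 genes of -0.0318, 0.00687 and 0.0284, against -0.04 to 0.0284 for other pairs), so the numbers were not taken as a pairing. Depth limits ERBB4, AREG, EREG and EPGN, which had 10 counts or fewer in all.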
